A study of Mus musculus with 6 samples.

Results

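The inflammatory CC chemokines described here are 10 mouse genes, Ccl2, Ccl3, Ccl4, Ccl5, Ccl6, Ccl7, Ccl8, Ccl9, Ccl12 and Ccl24, out of 19938 genes with a probe set of their own. They were chosen by name. Each is measured by 1 probe set of the array whose annotation names no other gene. Their intensity was compared between starry-sky tumor-associated macrophages (SS-TAMs) and germinal center macrophages (GCMs), both cut from frozen sections by laser, 1000 cells per tissue from female mice of 6 to 12 weeks, with amplified RNA and 1 array for each of 3 samples per group, titled as biological replicates. SS-TAMs were picked by CD68 staining from subcutaneous tumors of the human Burkitt's lymphoma line BL2, excised at 1.44 cm2 from Balb/c SCID mice, a strain without mature T and B cells, and therefore lay among human tumor cells. GCMs were the tingible-body macrophages of germinal centers in CSF1R EGFP transgenic Balb/c mice, in which a reporter is driven by the promoter of the macrophage growth factor receptor gene, after 2 doses of sheep red blood cells. Their tissue label names the spleen and their source label lymph nodes. Strain, immune status and tissue therefore differed together with the type of macrophage and cannot be told apart. The study asked how macrophages of a germinal center lymphoma differ from their counterparts in normal germinal centers.

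CC chemokines are small secreted proteins with paired cysteines near the N terminus. They bind matrix sugars and draw leukocytes along gradients through G protein-coupled receptors of the CCR family, many of which accept several ligands. Of the monocyte chemoattractant proteins (Ccl2, Ccl7, Ccl8 and Ccl12), Ccl2, Ccl7 and Ccl12 act largely on monocytes, and Ccl8 acts through CCR8 in the mouse. The macrophage inflammatory proteins (Ccl3 and Ccl4) and Ccl5 act on monocytes, T cells and natural killer (NK) cells, and Ccl24 on eosinophils. Ccl6 and Ccl9 are made by myeloid cells of the mouse. By RefSeq, chromosome 11 carries 9 of the 10 genes and chromosome 5 carries Ccl24. In gene order, Ccl2 and Ccl7 are followed by Ccl12 and Ccl8 with only Ccl11 between these pairs, and, 26 coding genes further on, Ccl5, Ccl9, Ccl6, Ccl3 and Ccl4 adjoin each other.

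Of the 10 chemokine genes, 6 were higher in SS-TAMs (Ccl2, Ccl3, Ccl6, Ccl7, Ccl8 and Ccl9) and 1 was lower (Ccl5), at a Benjamini-Hochberg adjusted p under 0.05 from limma, although Ccl2, Ccl7 and Ccl9 turned direction, uncalled, when scaled to core macrophage markers. Over all 19938 genes 5.16% were higher and 4.74% lower by the same criterion. For 9 members every SS-TAM array lay above every GCM array, as it did for 18.5% of all genes, and for Ccl5 every SS-TAM array lay below, as for 11.5% of all genes. The median log2 fold change of SS-TAMs over GCMs was 1.19 over the 10 members and 0.041 over all genes. Arrays had median intensities of 6.1 to 6.5, and the brightest 1% of probe sets began at 242 to 284 for SS-TAMs and at 614 to 664 for GCMs. Of 23 core macrophage markers measured, 15 were higher and none lower in SS-TAMs, and their summed level was 3473 to 4521 against 1449 to 1745 in GCMs. Fewer macrophages in a capture and less RNA per cell cannot be told apart on such arrays. No detection calls were used, so a low value is a level and not an absence. Probe sequences were not used here, so reads of 1 member by the probes of a related one were not tested.

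**Figure D1:**
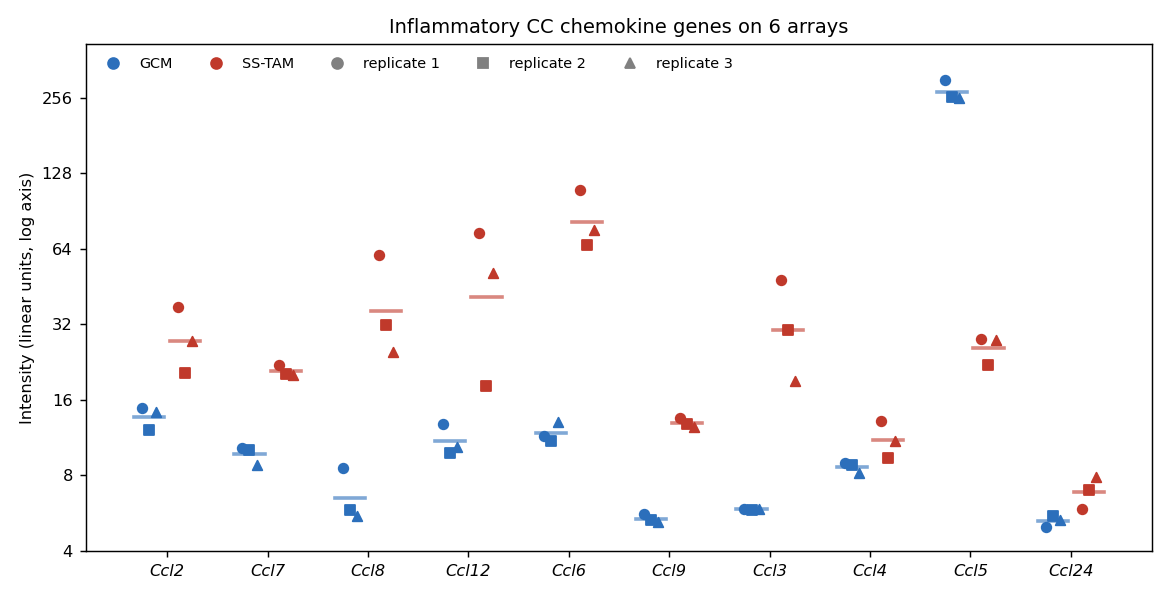
Intensity in linear units (log axis) of the 10 chemokine genes, with 1 point per array for 3 GCM (blue) and 3 SS-TAM (red) arrays, point shapes for the replicate number and bars for the geometric mean of a group. Ccl5 lies between 22.1 and 28.1 in SS-TAMs and between 257 and 303 in GCMs, whereas the SS-TAM points of the other 9 genes lie above the GCM points.

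Among the monocyte chemoattractant protein genes, Ccl2, Ccl7 and Ccl8 rose and Ccl12 was not called. Ccl2 encodes the main ligand of CCR2, the receptor that brings monocytes out of the marrow and into tissue. Its intensity on SS-TAM replicates 1, 2 and 3 was 37.4, 20.4 and 27.5, and on the GCM arrays 14.9, 12.1 and 14.3. The groups did not overlap, although the lowest SS-TAM array stood closer to the GCM arrays than to the highest SS-TAM array. Ccl2 was 2.01-fold higher in SS-TAMs (log2 fold change 1.01 with a standard error of 0.23, adjusted p = 0.047 from limma). Ccl7, which encodes another ligand of CCR2, was at 22.1, 20.3 and 20.1 in SS-TAMs and at 10.3, 10.1 and 8.8 in GCMs. Its SS-TAM arrays differed little from each other, and the 2.14-fold increase had the adjusted p = 0.0018 from limma (log2 fold change 1.10, standard error 0.083). Without any 1 array the log2 fold change of Ccl7 stayed between 1.03 and 1.14 and called, whereas the call of Ccl2 held only when SS-TAM replicate 2 was the array left out (adjusted p of 0.030 to 0.17 from limma) and was lost after median centring or with an offset of 8.

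Ccl8, whose protein acts through CCR8 in the mouse, was at 60.7, 31.9 and 24.8 in SS-TAMs and at 8.6, 5.8 and 5.5 in GCMs. The highest array of each group was replicate 1, and the groups were far apart. Ccl8 rose 5.59-fold (log2 fold change 2.48, 95% confidence interval 1.60 to 3.37, adjusted p = 0.013 from limma), a lower bound because its GCM level was close to the median of the arrays. Ccl12, a CCR2 ligand of the mouse, was at 73.9, 18.2 and 51.4 in SS-TAMs and at 12.8, 9.8 and 10.4 in GCMs. It varied more among the SS-TAM arrays than any other member, with the highest 4.06 times the lowest. Its mean log2 difference was 1.91 with a 95% confidence interval of 0.66 to 3.16, and it was not called (adjusted p = 0.075 from limma). It was called without SS-TAM replicate 2, with array weights and without dim genes. It was also called relative to the core macrophage markers, in a fit that gave every gene the same standard error of 0.21. On that scale SS-TAM replicate 2 of Ccl12 lay below all GCM arrays. The call of Ccl8 depended on GCM replicates 2 and 3 (adjusted p of 0.072 and 0.064 from limma when either was left out).

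The stretches around the starts of Ccl12 and Ccl8 are shown because these 2 genes adjoin each other and differed in the order of their levels on the SS-TAM arrays. They are RefSeq sequences of GRCm38.p6, from 250 bases before to 50 bases after the gene start, read 5′ to 3′ along the gene. Such entries were found for 5 of the 10 members. Capitals mark TATAAA, the TATA box, and GGAAGT, the core recognized by Ets factors such as PU.1 of macrophages, on either strand (TTTATA and ACTTCC on the other).
Ccl12, chr11:82101595-82101894, plus strand: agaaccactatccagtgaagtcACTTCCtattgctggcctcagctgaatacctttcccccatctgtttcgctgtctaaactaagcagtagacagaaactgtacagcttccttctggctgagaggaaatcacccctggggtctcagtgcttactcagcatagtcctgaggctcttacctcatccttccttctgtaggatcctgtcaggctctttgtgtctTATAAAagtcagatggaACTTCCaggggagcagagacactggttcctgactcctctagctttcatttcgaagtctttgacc
Ccl8, chr11:82114935-82115234, plus strand: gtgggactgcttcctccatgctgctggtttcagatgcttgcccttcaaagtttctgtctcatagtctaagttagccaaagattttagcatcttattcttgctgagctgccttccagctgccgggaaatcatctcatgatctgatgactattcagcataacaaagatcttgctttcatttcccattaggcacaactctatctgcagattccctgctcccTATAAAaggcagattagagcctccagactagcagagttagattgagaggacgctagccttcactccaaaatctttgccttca
Counted from the gene start, TATAAA lay at bases -31 to -26 in Ccl12 and at bases -32 to -27 in Ccl8. Of 32851 sequences of this length around gene starts, 13.6% hold TATAAA and 23.8% hold GGAAGT on either strand. Ccl12 held the latter as ACTTCC, starting at bases -228 and -14, and Ccl8 had no such match in this window. In a global alignment 60.0% of the 300 bases of Ccl12 and Ccl8 were the same, where the median over the 10 pairs of members with an entry was 54.5%. These matches describe the letters and not the binding of any factor.

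Ccl6 and Ccl9, which encode ligands of CCR1 made by myeloid cells, both rose in SS-TAMs. Ccl6 was at 110, 66.1 and 76 on the SS-TAM arrays and at 11.5, 11 and 13.1 on the GCM arrays. It rose 6.93-fold (log2 fold change 2.79 with a standard error of 0.20, adjusted p = 0.0015 from limma). Ccl9 was at 13.5, 12.8 and 12.5 in SS-TAMs and at 5.6, 5.3 and 5.2 in GCMs. These were the tightest SS-TAM values of any member, with the highest 1.08 times the lowest, and the increase was 2.41-fold (log2 fold change 1.27 with a standard error of 0.060, adjusted p = 0.00069 from limma). The GCM level of Ccl9 was below the median of the arrays, so its fold is a lower bound. Both kept their call without any 1 array.

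The sequences around the starts of Ccl6 and Ccl9 are shown with the same source, build, span and capitals, since this adjoining pair rose together and shared the longest run of bases among the pairs compared.
Ccl6, chr11:83593038-83593337, minus strand: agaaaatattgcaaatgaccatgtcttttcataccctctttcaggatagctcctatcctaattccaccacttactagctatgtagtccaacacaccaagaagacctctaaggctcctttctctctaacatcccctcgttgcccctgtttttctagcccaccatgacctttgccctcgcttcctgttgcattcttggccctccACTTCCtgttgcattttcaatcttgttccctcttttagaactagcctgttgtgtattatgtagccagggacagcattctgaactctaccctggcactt
Ccl9, chr11:83578587-83578886, minus strand: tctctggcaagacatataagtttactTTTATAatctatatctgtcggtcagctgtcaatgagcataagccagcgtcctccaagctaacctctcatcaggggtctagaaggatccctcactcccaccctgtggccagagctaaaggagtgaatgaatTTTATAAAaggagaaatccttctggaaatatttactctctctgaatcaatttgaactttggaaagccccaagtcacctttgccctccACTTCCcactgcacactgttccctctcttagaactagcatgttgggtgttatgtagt
The run of 13 bases that both hold was gccctccacttcc, which contains the ACTTCC stretch. That stretch lay at bases -48 to -43 in Ccl6 and at bases -7 to -2 in Ccl9. Ccl9 also held TATAAA at bases -92 to -87, farther upstream than in Ccl8 and Ccl12, and Ccl6 had no such match in this window.

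Ccl3 and Ccl4 encode the macrophage inflammatory proteins 1-alpha and 1-beta, which are classically induced by microbial products. Ccl3 was at 48, 30.5 and 19 in SS-TAMs and at 5.9, 5.8 and 5.9 in GCMs. The SS-TAM arrays spread over a 2.53-fold range, while the GCM arrays were almost level and below the median of the arrays. Ccl3 rose 5.17-fold, read as a lower bound (log2 fold change 2.37 with a standard error of 0.32, adjusted p = 0.011 from limma). Like Ccl8, it was not called without GCM replicate 2 or 3 (adjusted p of 0.060 and 0.055 from limma), with log2 fold changes of 2.36 and 2.37. Ccl4 was at 13.2, 9.4 and 11 in SS-TAMs and at 9, 8.8 and 8.2 in GCMs. The groups did not overlap, but the gap between them was small beside the spread of the SS-TAM arrays. Its log2 difference was 0.36 with a 95% confidence interval of 0.039 to 0.68, and it was not called (adjusted p = 0.16 from limma).

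Ccl24 encodes eotaxin-2, a ligand of CCR3 that attracts eosinophils and is made by macrophages exposed to IL-4. It was at 5.9, 7 and 7.9 in SS-TAMs and at 5, 5.5 and 5.3 in GCMs. All of these values lay around the median of the arrays, and the log2 difference of 0.39 (95% confidence interval 0.10 to 0.67) was not called (adjusted p = 0.10 from limma). Ccl24 was called when SS-TAM replicate 1, its lowest SS-TAM array, was left out. The other 9 members were all highest on SS-TAM replicate 1 among the SS-TAM arrays, as were 29.4% of all genes and 40.1% of the 3988 genes with a mean SS-TAM intensity above 12.6. Among the GCM arrays, 8 members were likewise highest or tied for highest on replicate 1. The geometric mean of the core macrophage markers was 90.4, 64.9 and 77.8 on SS-TAM replicates 1, 2 and 3, and the summed level of fibroblast and pericyte markers ranged from 854 to 1612 with replicate 1 highest. Their part in the order of the chemokine levels was not tested.

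Ccl5, also called RANTES, is made in quantity by activated T and NK cells and by some macrophages. It was the only member that fell in SS-TAMs on the deposited scale. Relative to core macrophage markers Ccl4 (-1.05) and Ccl24 (-1.01) were also lower, but less so than the median over all genes of -1.36. Ccl5 was at 28.1, 22.1 and 27.7 on SS-TAM arrays and at 303, 258 and 257 on GCM arrays. The arrays of each group lay close together and the groups were far apart. Ccl5 was 10.5-fold lower in SS-TAMs (log2 fold change -3.39 with a standard error of 0.12, adjusted p = 0.00032 from limma). The call held in all 15 refits and the log2 fold change ranged from -3.46 to -3.28 without any 1 array.

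T cell markers were mostly lower in SS-TAMs, as Ccl5 was, whereas most NK and cytotoxic markers were not called. Their median log2 fold changes were -1.66 and 0.033. Of 16 T cell markers measured, 10 were lower and none higher, with a summed level of 223 to 251 in SS-TAMs and 1281 to 1747 in GCMs. Cd3g, part of the signaling unit of the T cell receptor, was at 6.5, 6.2 and 6.3 in SS-TAMs and at 276, 411 and 377 in GCMs, and the cytotoxic lineage gene Cd8a was at 10.4, 10.5 and 9.4 against 29.4, 21.3 and 48.1. Of 13 markers of NK and cytotoxic cells, Nkg7, Eomes and Il2rb were lower and none was higher, with a summed level of 84.3 to 94.5 against 108 to 113. Ncr1, a defining receptor of NK cells, was below the median of the arrays on all 6 arrays (3.4 to 5.0). Among the GCM arrays, Ccl5 was highest on replicate 1, where 8 of the 10 members, Ccl5 included, were highest or tied for highest. On that array the summed T cell level was lowest. The summed NK and cytotoxic level and the summed B cell level were highest there. The part of lymphocytes in the Ccl5 difference was not tested.

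**Figure D2:**
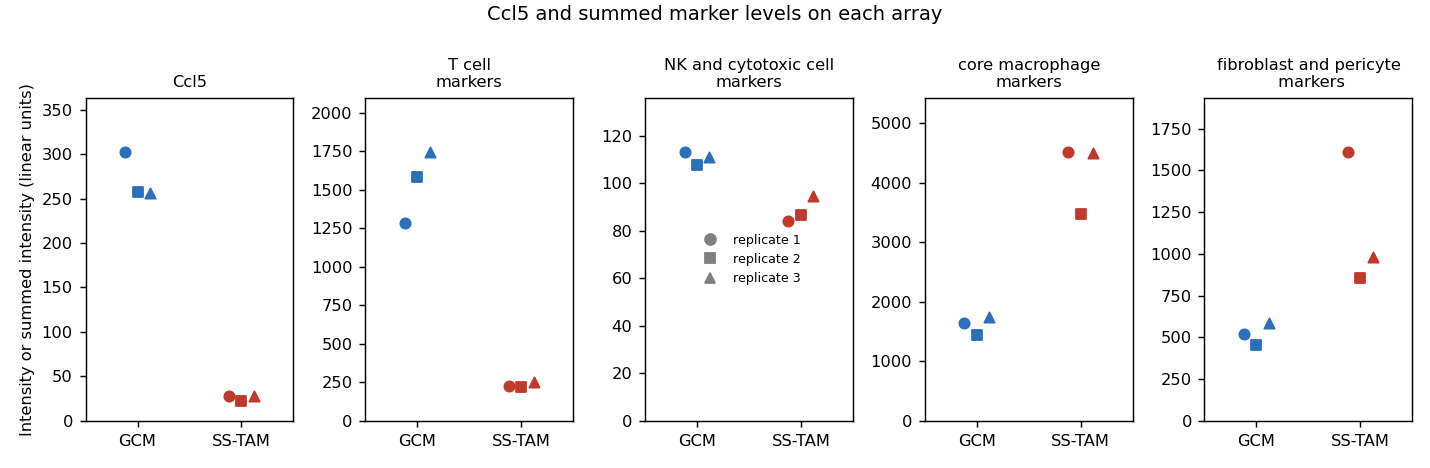
Intensity of Ccl5 and summed intensity of 16 T cell, 13 NK and cytotoxic, 23 core macrophage and 17 fibroblast and pericyte markers, in linear units from 0, with 1 point per array for 3 GCM (blue) and 3 SS-TAM (red) arrays. Ccl5 and the T cell sum are several times higher on GCM arrays, the NK sum is slightly higher there, and the macrophage and fibroblast sums are higher on SS-TAM arrays.

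Genes with the most similar profile to Ccl5 over the 6 arrays, among 894 genes with a mean intensity of at least 50, were Hsp90aa1, Anp32e, Rpl28 and Rpl6 (Pearson r from 0.997 to 0.999). For Ccl3 they were Hnrnpdl, Cltc, Creg1 and Glul (r from 0.978 to 0.995). Such coefficients over 6 arrays mostly reflect the difference between the 2 groups, which all of these genes share with the chemokine they resemble, and they carry no test.

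The adjoining genes were also set against each other. The log2 ratio of each of the 6 adjoining pairs was taken within each array and set against its GCM mean, which leaves out any scaling of whole arrays. These pairs were formed after their values had been seen and carry no test. The ratio of Ccl9 to Ccl5 was higher by 4.66 ± 0.19 in SS-TAMs, where the GCM arrays had an SD of 0.08 (n = 3). The ratio of Ccl6 to Ccl9 was higher by 1.52 ± 0.33, with a GCM SD of 0.17 (n = 3). The ratio of Ccl4 to Ccl3 was lower in SS-TAMs, at -2.01 ± 0.58 with a GCM SD of 0.08 (n = 3). In these 3 pairs the groups did not overlap. Because the GCM levels of Ccl9 and Ccl3 lay below the median of the arrays, where differences are compressed, the ratio of Ccl6 to Ccl9 may be overstated, and it does not show that the 2 genes changed unequally. In the other 3 pairs the groups overlapped, with values of 0.09 ± 0.38 for Ccl7 to Ccl2, 0.57 ± 0.94 for Ccl8 to Ccl12 and -0.43 ± 0.49 for Ccl3 to Ccl6 (SD, n = 3). For Ccl8 to Ccl12 the SS-TAM arrays themselves ran from -0.30 to 1.56.

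**Figure D3:**
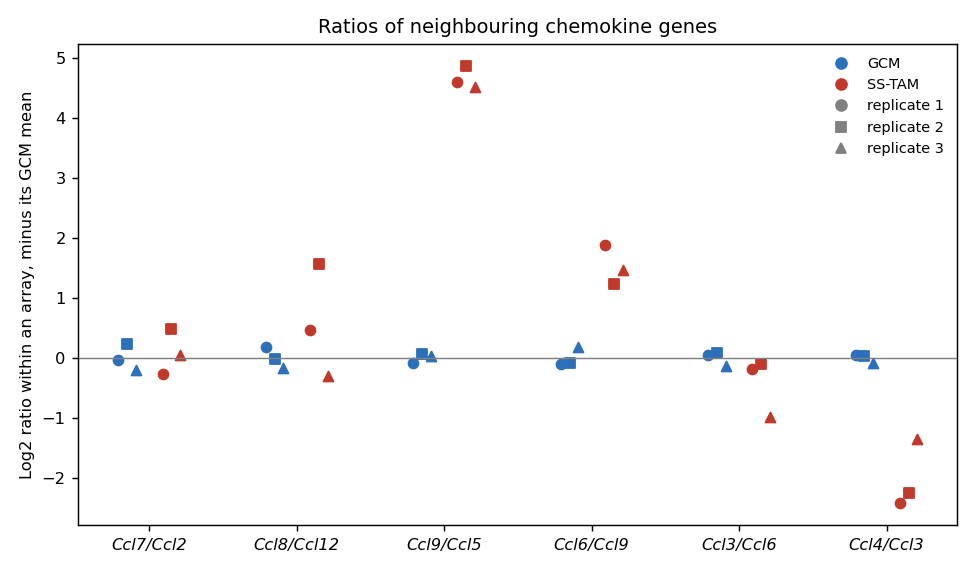
Log2 ratio of adjoining chemokine genes within each array, minus the mean of the 3 GCM arrays, with 1 point per array for GCM (blue) and SS-TAM (red) and point shapes for the replicate number. The SS-TAM points lie apart from the GCM points for Ccl9/Ccl5, Ccl6/Ccl9 and Ccl4/Ccl3, and the ranges of the groups overlap for the other 3 pairs.

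Because core macrophage markers were also higher in SS-TAMs, the members were set against the mean log2 level of these markers on the same array. On this scale the median log2 fold change over all genes was -1.36. Ccl6 (1.39), Ccl8 (1.08), Ccl3 (0.97) and Ccl12 (0.51) were higher in SS-TAMs, each with the 95% confidence interval above 0 although SS-TAM replicate 2 lay below all GCM arrays for Ccl12, and Ccl5 was lower at -4.80. Ccl2, Ccl7 and Ccl9 had log2 differences of -0.39, -0.30 and -0.13, with intervals that included 0. Ccl4 and Ccl24 turned to -1.05 and -1.01. Of the 6 increases, 3 thus lost both call and direction when expressed per macrophage marker. That fit gave every gene the same standard error of 0.21, so its intervals do not reflect the spread of each gene.

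**Figure D4:**
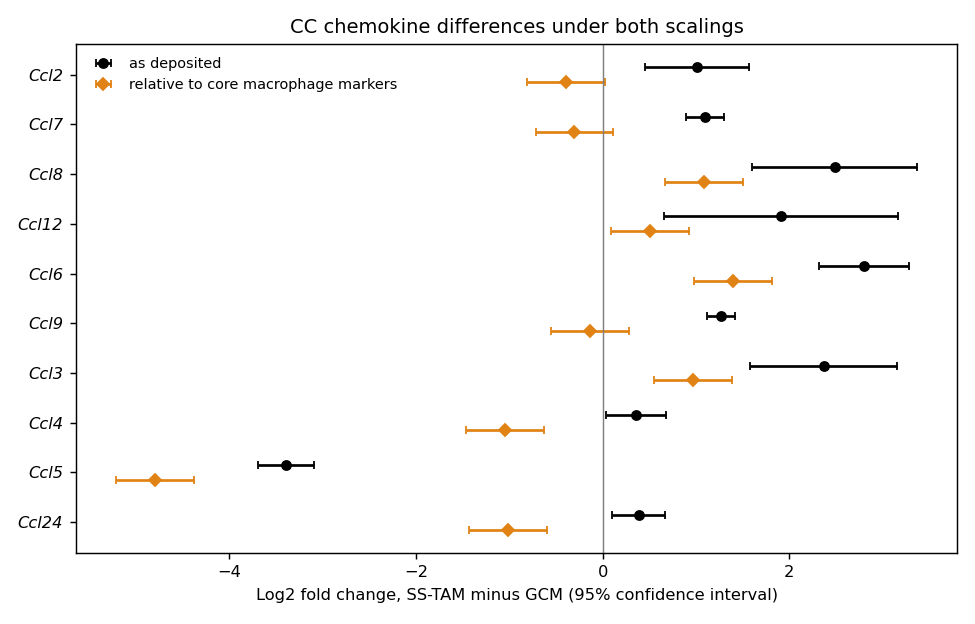
Difference in log2 intensity between SS-TAMs and GCMs (positive where SS-TAMs were higher) for the 10 chemokine genes with 95% confidence intervals from limma, as deposited (black circles) and relative to 23 core macrophage markers (orange diamonds), from 3 arrays per group. Ccl3, Ccl6, Ccl8 and Ccl12 lie above 0 under both scalings and Ccl5 below 0 under both, whereas Ccl2, Ccl4, Ccl7, Ccl9 and Ccl24 change side.

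Of 9 receptor genes of these chemokines measured, none was called in either direction by limma, and 3 had an unadjusted p under 0.05. Ccr2, the receptor for Ccl2, Ccl7 and Ccl12, was at 16.4, 15.3 and 12.1 in SS-TAMs and at 12.9, 12.9 and 12.2 in GCMs (log2 fold change 0.19, 95% confidence interval -0.10 to 0.49, adjusted p = 0.36 from limma). Ccrl2, which binds chemoattractants without classical signaling, was at 11.7, 7.3 and 13.7 against 6.5, 5.6 and 6 (log2 fold change 0.81, 95% confidence interval 0.23 to 1.38, adjusted p = 0.094 from limma). The arrays overlapped for Ccr2 and did not for Ccrl2. The median log2 fold change over the 9 genes was 0.16.

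Of 19 other chemokine genes of inflammation, 1 was higher and none lower, with a median log2 fold change of 0.072. It was Pf4, the platelet factor 4 gene Cxcl4, also made by macrophages, at 13.5, 14 and 12.3 in SS-TAMs and 5, 5 and 4.2 in GCMs (log2 fold change 1.49, adjusted p = 0.0013 from limma). Its GCM level was below the median of the arrays, so the fold is a lower bound, and relative to the core macrophage markers Pf4 was not called (log2 fold change 0.087, adjusted p = 0.68 from limma). Among 20 genes of inducing cytokines and of the NF-kB pathway, Il13 and Nfkbiz were higher and Rel was lower. Rel, the gene of the NF-kB subunit c-Rel that lymphocytes express strongly, was at 22.4, 26.7 and 32.3 in SS-TAMs and 68.9, 63.9 and 73.8 in GCMs (log2 fold change -1.36, adjusted p = 0.0050 from limma). Nfkbiz, which encodes a nuclear inhibitor-like cofactor of NF-kB, had a log2 fold change of 0.50, and Il13, a type 2 cytokine gene, of 0.48 (adjusted p = 0.012 and 0.010 from limma). Nfkbiz was not called without any 1 of the GCM arrays (adjusted p of 0.057 to 0.059 from limma), nor Il13 without GCM replicate 3 (0.051). Relative to the core macrophage markers Nfkbiz and Il13 turned to -0.91 and -0.92, where the median over all genes was -1.36. Tnf, the gene of a cytokine that induces Ccl2, was at 8.3, 9 and 8.9 against 7.5, 8.2 and 8.2 (adjusted p = 0.26 from limma).

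Proteases that trim CC chemokines and alter their activity went both ways. Of 9 such genes measured, Mmp2, which cleaves Ccl7, was higher and Dpp4, which clips the N terminus of Ccl5, was lower. Mmp2 was at 34.8, 23.3 and 26.7 in SS-TAMs and at 10.5, 8.8 and 8.5 in GCMs (log2 fold change 1.59, adjusted p = 0.0049 from limma), and relative to the core macrophage markers it was not called (log2 fold change 0.19, adjusted p = 0.37 from limma). Dpp4, also a marker of dendritic and T cells, was at 12.5, 7.4 and 7.1 against 17.8, 25.3 and 28.7 (log2 fold change -1.43, adjusted p = 0.031 from limma) and, of the fits with 1 array left out, was called only without SS-TAM replicate 1. It was not called with array weights or the replicate block (adjusted p = 0.059 and 0.097 from limma).

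Markers of other cells that make or follow CC chemokines were counted in the same fit. Of 13 monocyte and neutrophil markers, Plac8 was lower and none was higher, with a summed level of 76.5 to 88.5 in SS-TAMs and 91.1 to 106 in GCMs. None of 12 markers of mast cells, eosinophils and basophils was called by limma, and their sums were 61.3 to 67.6 and 62.7 to 63.2. Fibroblasts make Ccl2 and Ccl7, and of 17 genes marking fibroblasts and pericytes Col1a2, Col5a1, Pdgfrb, Postn and Sparc were higher while none fell, with sums of 854 to 1612 against 457 to 585. Of 12 endothelial markers Robo4 was higher, Ms4a1 and Cd79a fell among 12 genes marking B cells, and of 11 dendritic cell markers Flt3, Clec9a, Ccr7 and Dpp4 were lower. The part of these cells in the chemokine differences was not tested. The SS-TAMs lay among human BL2 lymphoma cells, and how far the mouse probe sets read RNA of those cells was not tested. The B cell markers therefore do not give the amount of tumor cell RNA in a capture.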

How the data were processed

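Laser-captured macrophages were profiled on Affymetrix Mouse Gene 1.0 arrays. Groups and replicate numbers came from the sample titles. Intensity values were deposited on a linear scale with 1 decimal; the submitters' notes name RMA and limma, with versions not given in the sources used here. Low intensities are compressed, which understates folds of dim genes.

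Of 28944 probe sets, 21789 name 1 gene (21698 matched RefSeq by gene ID), 1621 name several and 5534 are unnamed here. Each of 19938 genes was represented by its probe set of highest mean log2 intensity. The groups were tested on log2 intensity by limma 3.58.1 (R 4.3.3; two-sided, no covariate) with Benjamini-Hochberg adjustment over all genes, after a test on simulated arrays. With 3 arrays in each group, the smallest exact permutation p is 0.1, and p-values measure the spread between these samples. The main fit pooled 1 variance per gene over both groups. The array weights estimated by limma were unequal, at 0.42 to 0.57 for SS-TAM arrays and 1.8 to 2.5 for GCM arrays.

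Named genes are the members, called genes of 4 pathway lists (or the 2 brightest), the 4 genes most like Ccl5 and Ccl3, and marker examples. Members and lists were chosen with earlier results of these data known. Tnf and the genes of the last paragraph were chosen after their values were seen. Promoters were aligned globally (match 2, mismatch -1, gap opening -4, extension -0.5). Alternatives changed the scaling, offset, dim-gene filter, probe set rule, variance model, weights, replicate block and threshold, or left out 1 array.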

Additional observations from a re-analysis of the deposited data

How the results depend on the processing

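The count of called chemokine genes was 7 in the comparison as reported, 6 to 8 under every alternative of scaling, filter, probe set, variance model, weights, block and threshold except the unadjusted p (10), and 4 to 8 when 1 array was left out. It was 4 without GCM replicate 2 and 4 without GCM replicate 3, where Ccl2, Ccl3 and Ccl8 were not called. Ccl5 and Ccl6 were called in all 15 refits, and Ccl7 and Ccl9 in all but the scaling to core macrophage markers. That scaling also called 7 chemokine genes, but 4 were higher and 3 lower, against 6 and 1 as reported. There Ccl12 was called higher and Ccl4 and Ccl24 lower, while Ccl2, Ccl7 and Ccl9 were not called. That fit gave every gene the same standard error of 0.21. Over all genes the count was 1974, between 1577 and 1955 without 1 SS-TAM array and between 670 and 847 without 1 GCM array. It was 749 with a 2-fold minimum added and 5116 at an unadjusted p under 0.05. With scaling to the core macrophage markers it was 19698 (113 higher, 19585 lower). Median centring gave 722 higher and 1195 lower. Relative to the core macrophage markers, direction turned for Ccl2 (-0.39), Ccl4 (-1.05), Ccl7 (-0.30), Ccl9 (-0.13), Ccl24 (-1.01), Ccr2 (-1.21), Ccrl2 (-0.60), Nfkbiz (-0.91) and Il13 (-0.92), a scaling under which the median over all genes was itself -1.36. With the replicate block 1319 genes and 7 chemokine genes were called, and Dpp4 was not. Among the members the block lowered the standard error of Ccl8 from 0.36 to 0.14 and of Ccl2 from 0.23 to 0.13. It lowered that of every other member except Ccl9 (0.060 to 0.062). Whether same-numbered arrays shared an effect on the members was not tested. Same-numbered arrays deviated together only weakly (r = 0.090, 0.087 and 0.019), although every array correlated best with its own number, so the numbers were not taken to pair the animals. Signal over background limits Ccl3, Ccl8, Ccl9, Ccl24 and Pf4, whose GCM levels were near or below the median of the arrays.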

Other observations

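Several genes outside the members had wide or opposite values that did not pass limma's test, and they were chosen after their values were seen. Ccl22, a chemokine gene of mature dendritic cells, was at 10.4, 19.1 and 14.7 in SS-TAMs and at 18, 55.6 and 45 in GCMs, with overlapping arrays (log2 fold change -1.32, adjusted p = 0.15 from limma). Ccl17, which shares the receptor CCR4 with Ccl22, was at 5.2, 6 and 4.4 against 6.3, 10.9 and 7.6 (adjusted p = 0.14 from limma). Mmp12, a macrophage elastase gene whose protein also cleaves chemokines, was at 17.2, 14.4 and 63.2 in SS-TAMs and at 9.2, 6.6 and 6 in GCMs. Its highest array was SS-TAM replicate 3, whereas Mmp3 was at 61.3, 10.3 and 21.3 in SS-TAMs, highest on replicate 1 like Ccl2, Ccl8 and Ccl12 (adjusted p = 0.12 for Mmp12 and 0.11 for Mmp3 from limma). Il1a was at 5.7, 15.2 and 15.4 in SS-TAMs and at 5.6, 6.2 and 5.4 in GCMs, and on SS-TAM replicate 1, where 9 of the 10 CC chemokine genes had their highest SS-TAM level, it lay at the level of the GCM arrays (adjusted p = 0.21 from limma).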
